A study of Mus musculus with 4 samples.

Results

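Intergenic open chromatin close to genes was examined in 4 mouse skeletal muscles. A region was included when the authors' annotation called its ATAC-seq peak intergenic and placed the peak centre less than 50 kb from the nearest transcription start site (TSS). The lists held 5759 such peaks of 30136 in the extensor digitorum longus (EDL), 7809 of 40337 in the quadriceps (Quad), 5383 of 28784 in the soleus (Sol) and 3792 of 21582 in the diaphragm (Dia). Together these were 22743 of 120839 peaks. They are called proximal intergenic peaks here, and the other intergenic peaks, which lay at 50 kb or more, are called distal.

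All 4 muscles came from wild-type C57BL/6 mice, and the labels name no treatment, age or sex. The study's methods describe its mice as young C57BL/6J males. Each muscle was represented by 1 library that the labels call pooled, with the number of pooled samples unknown, so no test between muscles was possible and no p-value is given. Intervals are 95% intervals that cover counting error only, and every difference between lists describes these libraries. Series of 4 values are given in the order EDL, Quad, Sol and Dia throughout.

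ATAC-seq marks open chromatin by letting the Tn5 transposase cut DNA that nucleosomes leave accessible. Outside promoters, such open sites include enhancers, short sequences at which transcription factors assemble and raise transcription from a promoter elsewhere on the chromosome, as well as sites of CTCF, the factor that anchors chromatin loops. EDL and Quad are fast and mostly glycolytic muscles, Sol is slow and oxidative, and Dia is the main muscle of breathing. In muscle, enhancers bound by MyoD-family and MEF2 factors drive the genes of the contractile apparatus, and NFAT and other activity-dependent factors take part in the choice between fast and slow fibre programmes. The nearest gene is a label of position, and an enhancer can act on another gene.

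The DNA of 8 of these regions is shown because the account of named genes below turns on them. They are the Prr14 region, which ranked near the top in all 4 lists, and an Ldha region shared by all muscles with unequal ranks. The others (Mef2d, Tnnc2, Mylk2, Atp2a1, Atp2a2 and Idh2) were listed in a single muscle, in EDL and Quad alone or in Sol and Dia alone. Each sequence is the peak as listed for the muscle named, on the plus strand of mm10, read from the reference assembly 5′ to 3′. Capitals mark matches to an E-box (CAGCTG), the MEF2 motif or the TEAD motif (CATTCC), on either strand.
Prr14, Sol peak, chr7:127477901-127478107: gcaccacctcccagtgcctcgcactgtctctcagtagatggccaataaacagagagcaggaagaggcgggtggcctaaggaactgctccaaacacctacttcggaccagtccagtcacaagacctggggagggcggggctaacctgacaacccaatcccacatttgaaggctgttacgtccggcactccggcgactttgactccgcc
Mef2d, EDL peak, chr3:88138351-88138559: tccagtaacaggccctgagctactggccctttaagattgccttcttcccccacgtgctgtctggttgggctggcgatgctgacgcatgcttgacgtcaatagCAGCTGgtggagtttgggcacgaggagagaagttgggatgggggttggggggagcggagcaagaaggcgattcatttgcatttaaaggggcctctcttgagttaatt
Tnnc2, EDL peak, chr2:164781993-164782201: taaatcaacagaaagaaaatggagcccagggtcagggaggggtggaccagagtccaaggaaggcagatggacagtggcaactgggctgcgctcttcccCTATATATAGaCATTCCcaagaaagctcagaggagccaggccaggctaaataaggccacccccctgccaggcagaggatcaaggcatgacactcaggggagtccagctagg
Mylk2, EDL peak, chr2:152905476-152905684: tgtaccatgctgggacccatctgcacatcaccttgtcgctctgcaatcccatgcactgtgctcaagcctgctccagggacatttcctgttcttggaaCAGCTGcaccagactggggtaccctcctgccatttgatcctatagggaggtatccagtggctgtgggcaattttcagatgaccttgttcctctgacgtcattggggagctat
Atp2a1, Quad peak, chr7:126465776-126465964: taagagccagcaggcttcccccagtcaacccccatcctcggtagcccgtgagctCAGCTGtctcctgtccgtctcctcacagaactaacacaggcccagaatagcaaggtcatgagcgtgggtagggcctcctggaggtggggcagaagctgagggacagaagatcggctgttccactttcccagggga
Atp2a2, Sol peak, chr5:122510686-122510892: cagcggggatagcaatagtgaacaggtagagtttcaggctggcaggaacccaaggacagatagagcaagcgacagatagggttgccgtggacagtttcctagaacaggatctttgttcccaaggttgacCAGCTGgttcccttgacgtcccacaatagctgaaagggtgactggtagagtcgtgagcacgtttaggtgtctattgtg
Idh2, Sol peak, chr7:80130558-80130764: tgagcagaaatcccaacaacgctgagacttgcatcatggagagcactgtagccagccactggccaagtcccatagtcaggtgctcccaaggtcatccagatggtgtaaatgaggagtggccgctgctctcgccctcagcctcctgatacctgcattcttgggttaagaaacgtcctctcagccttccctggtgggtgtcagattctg
Ldha, EDL peak, chr7:46827537-46827745: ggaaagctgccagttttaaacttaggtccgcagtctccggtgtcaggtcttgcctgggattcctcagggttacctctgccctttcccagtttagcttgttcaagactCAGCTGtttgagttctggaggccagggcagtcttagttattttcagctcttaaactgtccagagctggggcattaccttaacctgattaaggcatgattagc

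Of these 8 peaks, 5 held an E-box: Mef2d, Mylk2, Atp2a1, Atp2a2 and Ldha. The Tnnc2 peak held a MEF2 match followed 1 base later by a TEAD match, and the Prr14 and Idh2 peaks held none of the motifs reported below. Such a match describes the letters of the sequence and does not show binding.

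The libraries carried the open promoters of muscle tissue. Of 10 fibre genes such as Ckm, Des and Ttn, promoter peaks were listed for 8, 9, 8 and 6, at median score percentiles of 91.7, 91.7, 85.3 and 69.8 of their own lists. Markers of other cell types were also represented. Among 7 endothelial genes, 5, 6, 5 and 1 had a promoter peak, whereas none of 7 macrophage and leukocyte genes, 4 adipocyte genes and 4 Schwann cell genes had one in any list. Promoter peaks were listed for 1, 2, 0 and 0 of 3 smooth muscle genes, 0, 0, 1 and 0 of 6 fibro-adipogenic genes and 0, 1, 0 and 0 of 3 tendon genes. Proximal intergenic peaks near the endothelial genes numbered 9, 10, 10 and 6, those near the macrophage genes 2, 4, 0 and 0, and those near the fibro-adipogenic genes 6, 8, 4 and 1. The part of other cells in the peaks described here was not tested.

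Proximal intergenic peaks made up nearly the same share of every list. EDL had a share of 19.1% (95% Wilson interval 18.7% to 19.6%), and Quad had 19.4% (18.98% to 19.7%). Sol followed with 18.7% (18.3% to 19.2%), and Dia was lowest with 17.6% (17.1% to 18.1%). EDL and Quad differed by -0.25 percentage points (Newcombe interval -0.84 to 0.34), and Quad exceeded Sol by 0.658 points (0.0638 to 1.25). Dia lay below the other lists by 1.13 to 1.79 points, with intervals that did not reach 0. These peaks were 64.0%, 61.0%, 62.2% and 65.5% of all intergenic peaks of EDL, Quad, Sol and Dia. When every list was cut to its 20000 highest scores, EDL and Sol had 16.2% each, Quad 15.6% and Dia 16.7%, and Dia was then the highest.

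Their concentration near genes exceeded what the length of sequence there would give. Outside RefSeq transcripts, 38.05% of the intergenic sequence of chromosomes 1 to 19 and X lay within 50 kb of a TSS, or 564 of 1481 Mb. In EDL this sequence held 9.72 peaks per Mb, against 3.41 per Mb farther out, a ratio of 2.85. The ratio was 2.50 in Quad (13.2 and 5.29 per Mb), 2.62 in Sol (9.07 and 3.46) and 3.03 in Dia (6.37 and 2.11). Upstream, density dipped at 2 to 5 kb in all 4 lists, to 8.03 peaks per Mb in EDL against 12.3 at 1 to 2 kb and 11.3 at 5 to 10 kb. The fall with distance continued beyond the limit, since EDL held 6.32 peaks per Mb at 50 to 100 kb upstream, 4.22 at 100 to 200 kb and 1.82 at 200 to 500 kb.

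**Figure D1:**
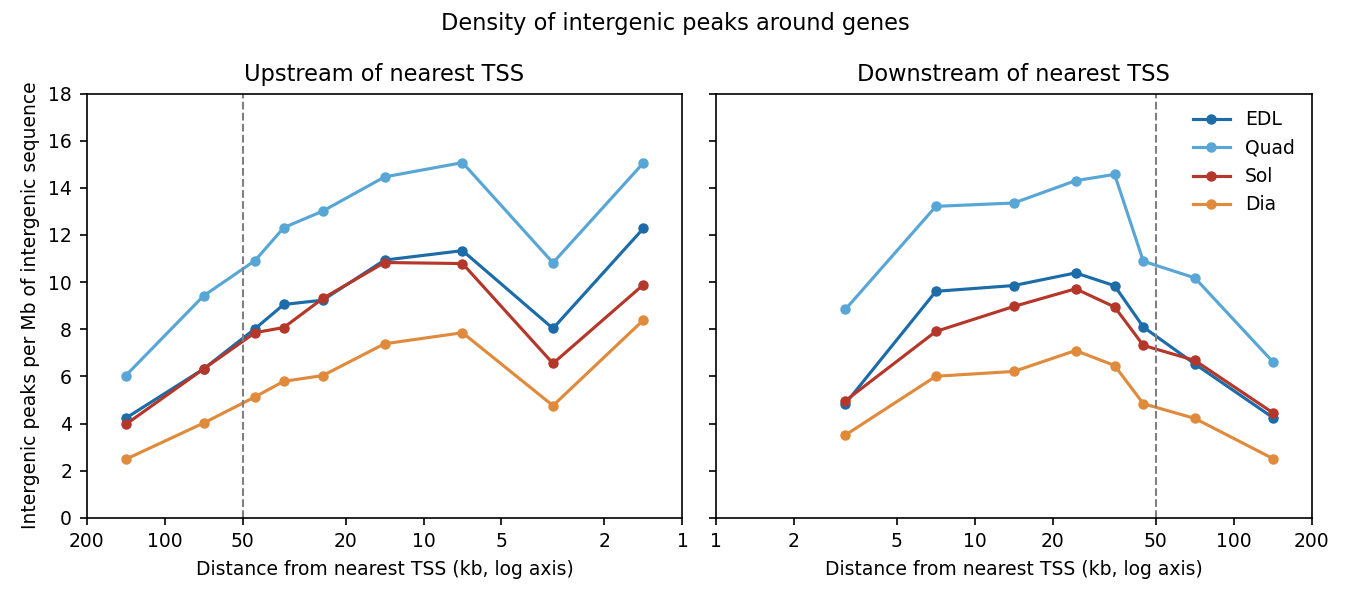
Peaks per Mb of intergenic sequence (y axis) against distance to the nearest TSS in kb (x axis), upstream and downstream, for each of the 4 lists. From 40 to 50 kb outwards density fell with every step in all lists and on both sides, and upstream of the TSS EDL passed from 8.02 peaks per Mb at 40 to 50 kb to 4.22 at 100 to 200 kb; the dashed lines mark 50 kb.

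Most of these peaks lay upstream of their nearest TSS, and the intergenic sequence itself was divided in nearly the same way. Upstream peaks made up 71.6%, 70.7%, 72.4% and 72.0% of them. Intergenic sequence within 50 kb of a TSS was itself 70.2% upstream, because downstream sequence close to a TSS is usually part of the gene. Counted over this same sequence, the shares were 71.2%, 70.4%, 72.0% and 71.7%. Distal peaks were nearly balanced, with 53.2%, 51.5%, 52.0% and 54.1% upstream.

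Between 2 and 20 kb the upstream share of the peaks lay above that of the sequence in all 4 lists. At 2 to 5 kb, 91.3% of the EDL peaks (88.4% to 93.5%), 88.2% of Quad, 89.3% of Sol and 89.8% of Dia were upstream, against 85.6% of the sequence. At 10 to 20 kb the shares were 72.9%, 72.2%, 74.3% and 74.2%, against 70.2%. The Quad intervals in both of these bins reached the value of the sequence. These bin shares count every proximal intergenic peak, whereas the sequence covers only bases outside RefSeq transcripts. Matched intervals were not computed, and those of other lists may also reach the sequence value. In density over the same sequence, upstream exceeded downstream in every list from 2 to 20 kb, with 8.03 and 4.85 peaks per Mb in EDL at 2 to 5 kb. At 20 to 30 kb the order turned, with upstream shares of 62.7%, 63.2%, 64.9% and 61.9% against 65.1% of the sequence, and at 30 to 40 kb they were 60.3%, 58.2%, 59.9% and 59.4% against 61.8%. Of these 8 values, counted over all peaks, the interval excluded the sequence only for Quad at 30 to 40 kb (55.4% to 61.0%). Over the same sequence, upstream density lay below downstream density in every list from 20 to 40 kb, with 9.23 and 10.4 peaks per Mb in EDL at 20 to 30 kb. From 40 to 50 kb the peaks (59.3%, 59.5%, 61.3% and 61.7%) and the sequence (59.5%) were alike within the peaks' intervals. Downstream of the TSS, intergenic sequence at 2 to 5 kb covered only 8.25 Mb, against 49.2 Mb upstream.

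The annotation left no proximal intergenic peak closer than 1002 bp to a TSS, because peaks within 1 kb upstream were called promoter. Upstream peaks lay at a median of 14392 bp in Dia to 15072 bp in Sol from the TSS, and downstream peaks at 23191 bp in Dia to 23791 bp in Sol. Upstream and downstream peaks had similar strength. Their median score percentiles were 39.6 and 39.6 in EDL, 41.8 and 41.8 in Quad, 39.3 and 40.5 in Sol, and 34.1 and 35.4 in Dia, with overlapping intervals.

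Peak strength was read from the score that the peak caller HOMER gave each peak, a tag count scaled by library size. Scores were compared as percentiles within a list, where 100 is the highest-scored peak. Proximal intergenic peaks were of middle rank. Their median percentile was 39.6 in EDL (38.3 to 40.9), 41.8 in Quad (40.0 to 41.8), 39.3 in Sol (38.2 to 40.5) and 34.1 in Dia (32.7 to 35.4). Distal peaks ranked lower, at 30.1, 30.2, 29.3 and 24.96, and promoter peaks higher, at 76.3, 81.3, 75.7 and 74.1. Intragenic peaks ranked nearly alike, at 40.9, 41.8, 40.5 and 35.4. The highest-scored 10% of each list contained 186, 271, 174 and 100 proximal intergenic peaks in EDL, Quad, Sol and Dia, which was between 2.64% and 3.47% of them. Between 21.1% and 31.4% of promoter peaks fell in that group.

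Rank fell with distance over the first 10 kb and changed less beyond. Peaks at 1 to 2 kb had a median percentile of 57.9, 60.1, 62.5 and 53.4 in EDL, Quad, Sol and Dia. At 10 to 20 kb the medians were 37.0, 38.2, 35.8 and 31.1. At 40 to 50 kb they were 33.0, 38.2, 33.4 and 26.5. Just inside the limit of the selection, peaks at 49 to 50 kb (54, 64, 51 and 32 peaks) had median percentiles of 29.3, 40.0, 35.8 and 28.8. Just outside it, peaks at 50 to 51 kb (63, 81, 44 and 33 peaks) had 33.0, 32.4, 35.8 and 29.6.

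**Figure D2:**
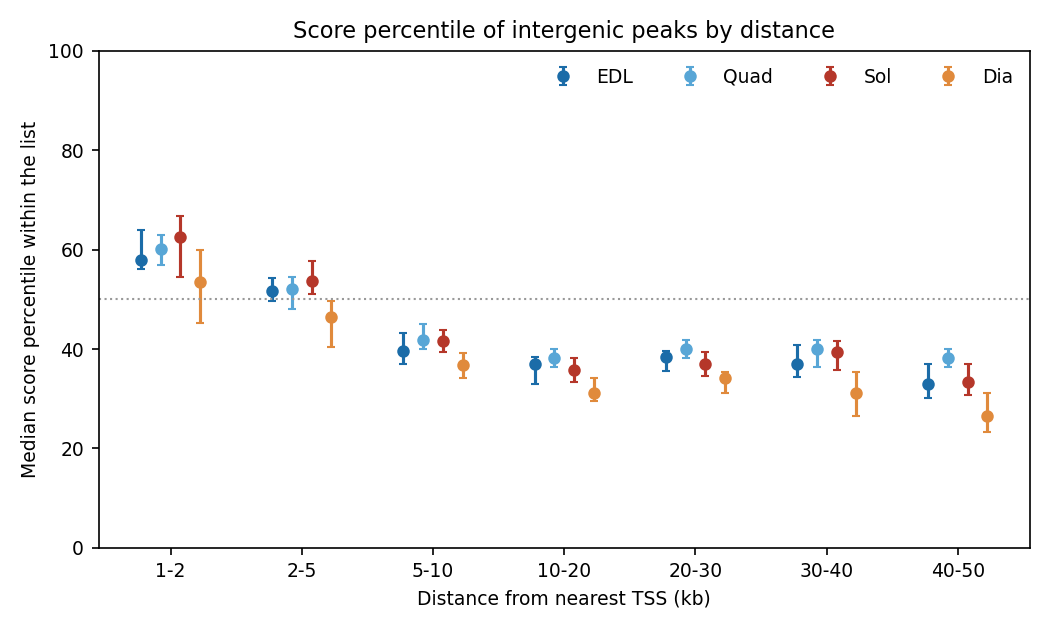
Median score percentile within the list (y axis) of proximal intergenic peaks against distance to the nearest TSS in kb (x axis), for the 4 lists, with 95% binomial order-statistic intervals. Medians fell from between 53.4 and 62.5 closest to the TSS to between 26.5 and 38.2 at 40 to 50 kb.

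Some of these peaks lay at start sites that the authors' annotation did not place there. In the GENCODE vM21 gene set, between 80.9% and 81.7% of the peaks on assembled chromosomes were in no gene, 8.60% to 9.05% were inside a protein-coding gene and 9.33% to 10.5% inside another gene only. Peaks within 1 kb of a GENCODE TSS numbered 541, 709, 530 and 449 in EDL, Quad, Sol and Dia. They ranked higher than the rest, with median percentiles of 54.4, 55.7, 54.9 and 50.6 against 38.3, 40.0, 37.0 and 32.7. They were also listed in all 4 muscles more often, by 19.97 percentage points in EDL (15.6 to 24.3), 15.8 in Quad (12.1 to 19.6), 17.9 in Sol (13.5 to 22.3) and 11.6 in Dia (6.76 to 16.1).

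The nearest gene was protein-coding for 81.4%, 80.6%, 81.2% and 81.8% of the peaks in EDL, Quad, Sol and Dia, and a noncoding RNA for 17.2%, 18.02%, 17.5% and 16.7%. Where it was protein-coding, its own promoter held a peak of the same list for 52.2%, 58.2%, 52.3% and 50.1% of the proximal intergenic peaks. For distal peaks this share was 54.8%, 58.8%, 54.1% and 55.3%.

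Sharing between muscles was counted by overlap of at least 1 bp. In EDL, 36.5% of the proximal intergenic peaks had a peak in all 4 lists, against 48.1% of all EDL peaks. The share was 26.9% in Quad against 36% of all Quad peaks, 39.0% in Sol against 50.4%, and 55.6% in Dia against 67.2%. Peaks in no other list made up 15.5% in EDL (891 peaks), 33.6% in Quad (2623), 20.9% in Sol (1126) and 18.2% in Dia (691). Over all peaks of these lists the shares were 12%, 30.3%, 16.1% and 11.5%. The order of the muscles changed at equal list length. With 20000 peaks per list the proximal intergenic shares were 14.3%, 16.5%, 17.6% and 30.2%, and Dia was then the highest in place of Quad. This cut took few peaks from Dia (21582 listed) and many from Quad (40337 listed). The parts of list length, depth and peak width were not tested. Proximal intergenic peaks were thus less often common to all muscles and more often confined to 1 list than the lists as a whole, which include many promoters.

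In sharing they lay between promoter peaks and distal peaks. All 4 lists held 82.0%, 73.7%, 82.5% and 84.9% of the promoter peaks of EDL, Quad, Sol and Dia, and 30.5%, 19.8%, 30.1% and 49.5% of the distal peaks. For intragenic peaks the shares were 32.1%, 22.2%, 35.1% and 55.8%. These were below the proximal intergenic shares in EDL, Quad and Sol and close to the share in Dia. The difference between proximal and distal peaks was 5.99 percentage points in EDL (3.97 to 7.997), 7.14 in Quad (5.65 to 8.61), 8.86 in Sol (6.81 to 10.9) and 6.09 in Dia (3.38 to 8.79). Score rank moved with this difference. Within quintiles of each list by score, the interval of the difference included 0 in 18 of 20 cases, the exceptions being the lowest quintile of EDL (3.52 points, 1.20 to 5.78) and of Sol (2.64 points, 0.451 to 4.81). Promoter peaks exceeded proximal intergenic peaks of the same quintile in all 20 cases, and the interval included 0 only in the top quintile of Dia (-1.30 points, -4.80 to 0.923).

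**Figure D3:**
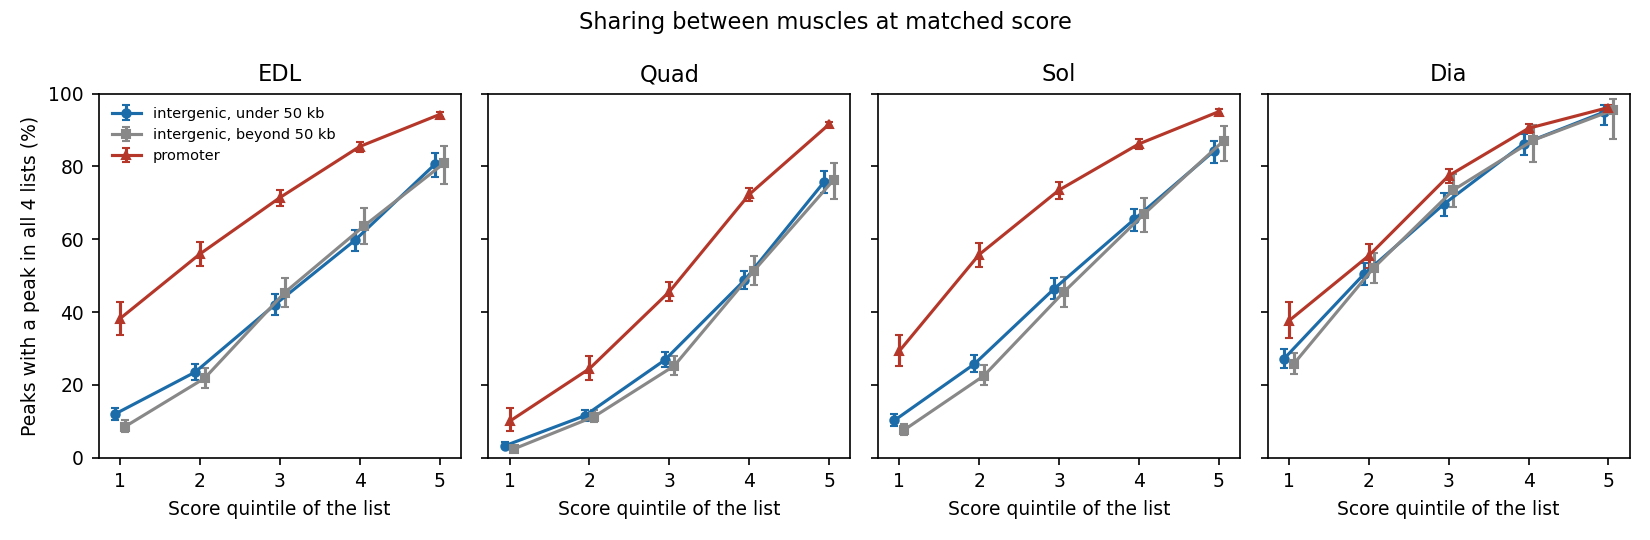
Percentage of peaks with a peak in all 4 lists (y axis) by quintile of the score in each list (x axis), for proximal intergenic, distal intergenic and promoter peaks, with 95% Wilson intervals. Proximal and distal peaks followed nearly the same course, from 12.04% and 8.52% in the lowest quintile of EDL to 80.5% and 80.9% in the top quintile, and promoter peaks lay above both.

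Overlapping peaks were merged into 11173 proximal intergenic regions. All 4 lists held 2115 of them (18.9%), against 13.5% of 7305 distal regions and 66.1% of promoter regions. Quad alone held 2623 (23.5%), Sol alone 1126 (10.1%), EDL alone 891 (7.97%) and Dia alone 691 (6.18%). Among pairs, EDL and Quad alone shared 1011 regions (9.05%), and Sol and Dia alone shared 140 (1.25%). These combinations held 7.94% and 1.56% of distal regions and 2.59% and 0.724% of promoter regions. The proximal share of EDL and Quad exceeded the distal by 1.11 points (0.284 to 1.92), whereas for Sol and Dia the interval of the difference included 0 (-0.31, -0.67 to 0.035). EDL, Quad and Sol without Dia shared a further 1013.

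These counts also changed at equal list length. With 20000 peaks per list, 5943 regions remained, of which 23.6% were in all 4 lists, 357 (6.01%) in EDL and Quad alone and 263 (4.43%) in Sol and Dia alone. Dia alone then held 1006 (16.9%), more than any other single muscle. Among EDL peaks at this length, 69.96% had a peak in Quad, 66.9% in Sol and 57.1% in Dia. Of the Dia peaks, 59.6% had one in Sol, 55.7% in EDL and 52.1% in Quad. With the full lists, Quad was the most frequent partner of Dia, at 72.3%, so the order of partners turned with list length.

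**Figure D4:**
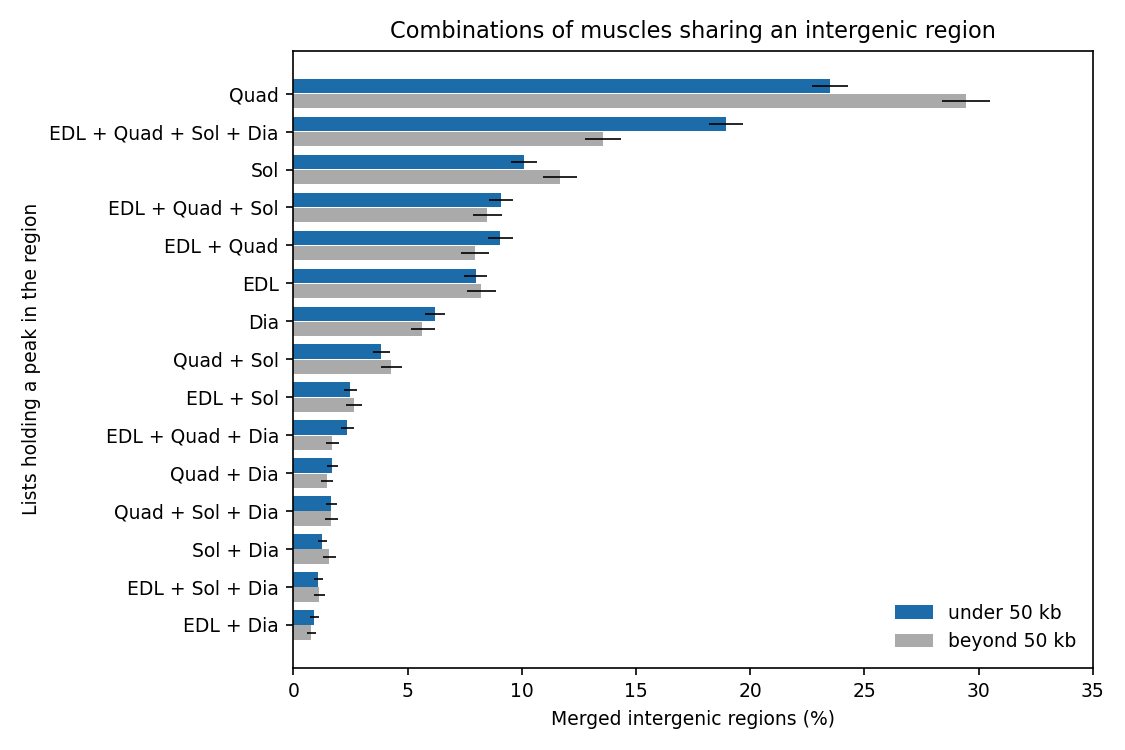
Percentage of merged intergenic regions (x axis) in each combination of lists (y axis), for the proximal regions under 50 kb and the distal regions beyond 50 kb, with 95% Wilson intervals. All 4 lists shared 18.9% of the proximal and 13.5% of the distal regions, and Quad alone held 23.5% and 29.4%.

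Proximal intergenic regions near the top of all lists fell into repeats and single-copy sequence. The highest-scored proximal intergenic region in every list was nearest to 4933422A05Rik (chr9:35305339-35305571, 24346 bp downstream of its TSS in EDL) and was 100% soft-masked repeat. A region nearest to Ly6c2 (chr15:75086660-75087046) followed, with 62.8% of its 42-base words found more than once in the assembly. A region nearest to Gad2 (chr2:22589605-22589894) had 92.7% repeated words and was 99.1% identical to mitochondrial DNA over its match. The 2 highest-ranked regions nearest to Mir101c, on chromosome 9, were 96.2% and 98.3% soft-masked. The scores of such regions can include reads that came from other copies, since removal of repeat-derived or mitochondrial reads was not stated. Over all proximal intergenic peaks, more than 50% of the sequence was soft-masked in 2.12%, 3.23%, 1.99% and 1.85% of the peaks in EDL, Quad, Sol and Dia.

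Among regions under 50% soft-masked and under 50% repeated, a selection made after the values were seen, the Prr14 region shown above (chr7:127477900-127478138) ranked first. It had percentiles of 99.5, 99.4, 99.7 and 99.4 in EDL, Quad, Sol and Dia and lay 6390 bp downstream of the Prr14 TSS in EDL. Pak3, which encodes a kinase of the cytoskeleton, followed with a region at -35532 bp in EDL (99.4, 99.9, 99.2 and 99.5). Per1, a repressor of the circadian clock, had a region at -3819 bp in EDL (99.5, 99.5, 99.4 and 97.9), whose peaks lay 37 to 96 bp from a GENCODE TSS. A region at -18457 bp of Fos, an immediate-early factor of the AP-1 family, had 98.3, 99.3, 97.9 and 98.5. The peaks nearest to Chit1, Foxj2 and Mirlet7a-1 in this group were 74 to 223 bp from a GENCODE TSS, whereas those nearest to Fos and Pak3 were over 18 kb from one. Those of the Prr14 region lay 1177 to 1200 bp from a GENCODE TSS, and those of a region nearest to Mir7012 lay 92 to 173 bp from one.

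Regions confined to 1 muscle were taken where no other list had a peak within 500 bp. The first for EDL lay at -3917 bp of Mef2d, a MEF2 transcription factor of muscle genes (percentile 94.5, chr3:88138351-88138559), and the closest peak elsewhere lay 4786 bp away. The Mef2d promoter itself had a peak in EDL alone. A second EDL region lay at -2363 bp of Tnnc2, the fast troponin C (percentile 88.4), and the Tnnc2 promoter was listed in EDL, Quad and Sol at percentiles of 89.4, 86.8 and 73.7. The other EDL regions were nearest to A330009N23Rik (91.2), A930016O22Rik (86.65) and Armc12 (84.3). In Quad, a region at -2797 bp of Atp2a1, the calcium pump of fast fibres, had percentile 91.8 with a gap of 9103 bp, and no list had a promoter peak of Atp2a1. Quad regions nearest to Irf2bpl (-7749 bp) and Rhof (-3018 bp) also had percentile 91.8. They lay 4 and 114 bp from a GENCODE TSS, inside GENCODE models of noncoding genes. Quad regions nearest to Mir101c were at least 94.2% soft-masked.

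In Sol, a region at -8564 bp of Atp2a2, the calcium pump of slow fibres and heart, had percentile 84.5 and a gap of 8310 bp. Another Sol region at -24492 bp of Atp2a2 had percentile 64.6. The Atp2a2 promoter was listed in all 4 muscles, at percentiles of 47.6, 84.0, 78.8 and 69.8 in EDL, Quad, Sol and Dia. The first-ranked Sol region lay at -5016 bp of Apobec2, a deaminase-family gene of striated muscle (percentile 85.1, gap 845 bp), and the Apobec2 promoter was listed in EDL and Quad and not in Sol or Dia. Sol regions nearest to Smarcd3 and C1qtnf6 lay inside the GENCODE models of those genes. Dia regions of this kind had lower ranks. They were nearest to 2810410L24Rik (74.1), C1qtnf1 (64.9), Coq8a, a gene of coenzyme Q synthesis (60.7), Tcea2 (60.0) and Gm9895 (59.2).

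Regions listed in EDL and Quad alone included several of high rank, chosen after the values were seen. The first was at -7099 bp of Klf9 in EDL, a Krüppel-like factor that responds to glucocorticoids, with percentiles of 92.3 in EDL and 92.0 in Quad. A region at -4594 bp of Kdm6b, a histone H3K27 demethylase, had 92.3 and 86.8. Regions listed in Sol and Dia alone had lower ranks. One at -15311 bp of Idh2, the mitochondrial isocitrate dehydrogenase, had 88.2 in Sol and 58.4 in Dia. One at -2020 bp of Nfatc1, a calcineurin-dependent factor of slow fibres, had 78.3 and 67.5, but a neighbouring region at -2365 bp was listed in EDL, Quad and Sol at 75.8, 89.0 and 77.5.

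Among 2106 regions shared by all 4 lists on chromosomes 1 to 19 and X, 85 had percentiles in EDL and Quad that both exceeded those in Sol and Dia by over 20 points, and 7 had the reverse. These were 4.04% and 0.332% of them, against 2.56% and 0.193% of the 14482 shared regions of all classes and 6.38% and 1.11% of those with a distal peak. Percentiles depend on list length, and the balance turned when it was equal: with 20000 peaks per list, 18 and 30 of 1396 proximal regions passed these limits. The limits and the equal-length count were chosen after the values were seen, and the regions named next describe the full lists. The Ldha region at -18163 bp, upstream of the gene for the muscle-type lactate dehydrogenase subunit, had percentiles of 86.9 in EDL and 77.9 in Quad, against 27.7 in Sol and 24.96 in Dia. A region at -23850 bp of Mstn, the gene for the growth inhibitor myostatin, had 88.6 and 91.3 against 16.1 and 39.2. Prkab1, a subunit of AMP-activated kinase, had a region at -12152 bp with 74.4 and 85.3 against 17.6 and 20. The largest gap was at -46232 bp of Pthlh (75.4 and 90.5 against 16.1 and 9.72). In reverse, a region at -12734 bp of the homeobox gene Barx2 had 2.97 and 34.4 in EDL and Quad against 74.7 and 70.9 in Sol and Dia, and one at -6668 bp of the ubiquitin ligase component Fbxo30 had 18.8 and 36.4 against 72.7 and 62.9.

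Regions of this class were also counted at genes of muscle fibre types. Of 20 fast-fibre genes, 9 had 21 regions. Regions listed in EDL, Quad or both and in neither Sol nor Dia numbered 9, and those listed in Sol, Dia or both and in neither EDL nor Quad numbered 3. Of 20 slow-fibre genes, 14 had 33 regions, with 5 on the EDL and Quad side and 11 on the Sol and Dia side. In percent, the sides held 42.9% and 14.3% of the fast-fibre regions and 15.2% and 33.3% of the slow-fibre regions, against 40.5% and 17.5% of all 11173 regions, so the fast-fibre split was near that of all regions. With 20000 peaks per list the fast-fibre genes had 9 and 2 of 17 regions, and the slow-fibre genes 2 and 13 of 23, whereas over all 5943 regions the sides turned to 22.4% and 31.0%. The lists were compiled with earlier results of these data known and serve as a description.

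Mylk2, the gene for skeletal myosin light chain kinase, had 3 regions. The one at -5772 bp had percentiles of 85.0 in EDL and 76.4 in Quad, and one at -6928 bp had 80.7 and 71.9, with no peak in Sol or Dia. Another Mylk2 region at -12130 bp was listed in Sol as well (82.1, 79.9 and 41.6). Quad alone held regions at -1711 bp of Pygm, the muscle glycogen phosphorylase (89.8), and at -1596 bp of Casq1, the calsequestrin of fast fibres (87.4). At Pvalb, the calcium buffer of fast fibres, EDL alone held a region at -5215 bp (76.7), whereas a region at -9076 bp had 2.35 in Quad, 65.3 in Sol and 29.6 in Dia and went against the list's name.

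Among slow-fibre genes, Sol alone held both regions of Myh7, the slow myosin heavy chain, at percentiles of 56.97 (-9317 bp) and 49.99 (-10127 bp). At Myl2, the slow regulatory light chain, Sol alone held regions at -7896 bp (67.9) and -2568 bp (63.2), and another at -11877 bp was shared by all 4 lists (39.6, 20.8, 42.7 and 2.92). Tnni1, the slow troponin I, had a region at -4700 bp listed in EDL at 43.2 and in Sol at 77.0, which lies inside the GENCODE model of Tnni1. Fabp3, the heart-type fatty acid carrier, had a region at -9182 bp in all 4 lists at 85.7, 81.3, 86.1 and 72.5. Myh2, the fast oxidative myosin heavy chain, had 2 regions, none above percentile 23.4 in any list. The 5 slow-fibre regions on the EDL and Quad side went against the list's name. Quad alone held regions of Mb (56.8), Lpl (40.0) and Myl3 (7.89), EDL alone one of Casq2 (6.46), and both lists one of Lpl (24.0 and 20.8). Sol regions of Csrp3 (11.4) and Sln (17.6 and 1.85), listed in Sol alone, ranked low.

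**Figure D5:**
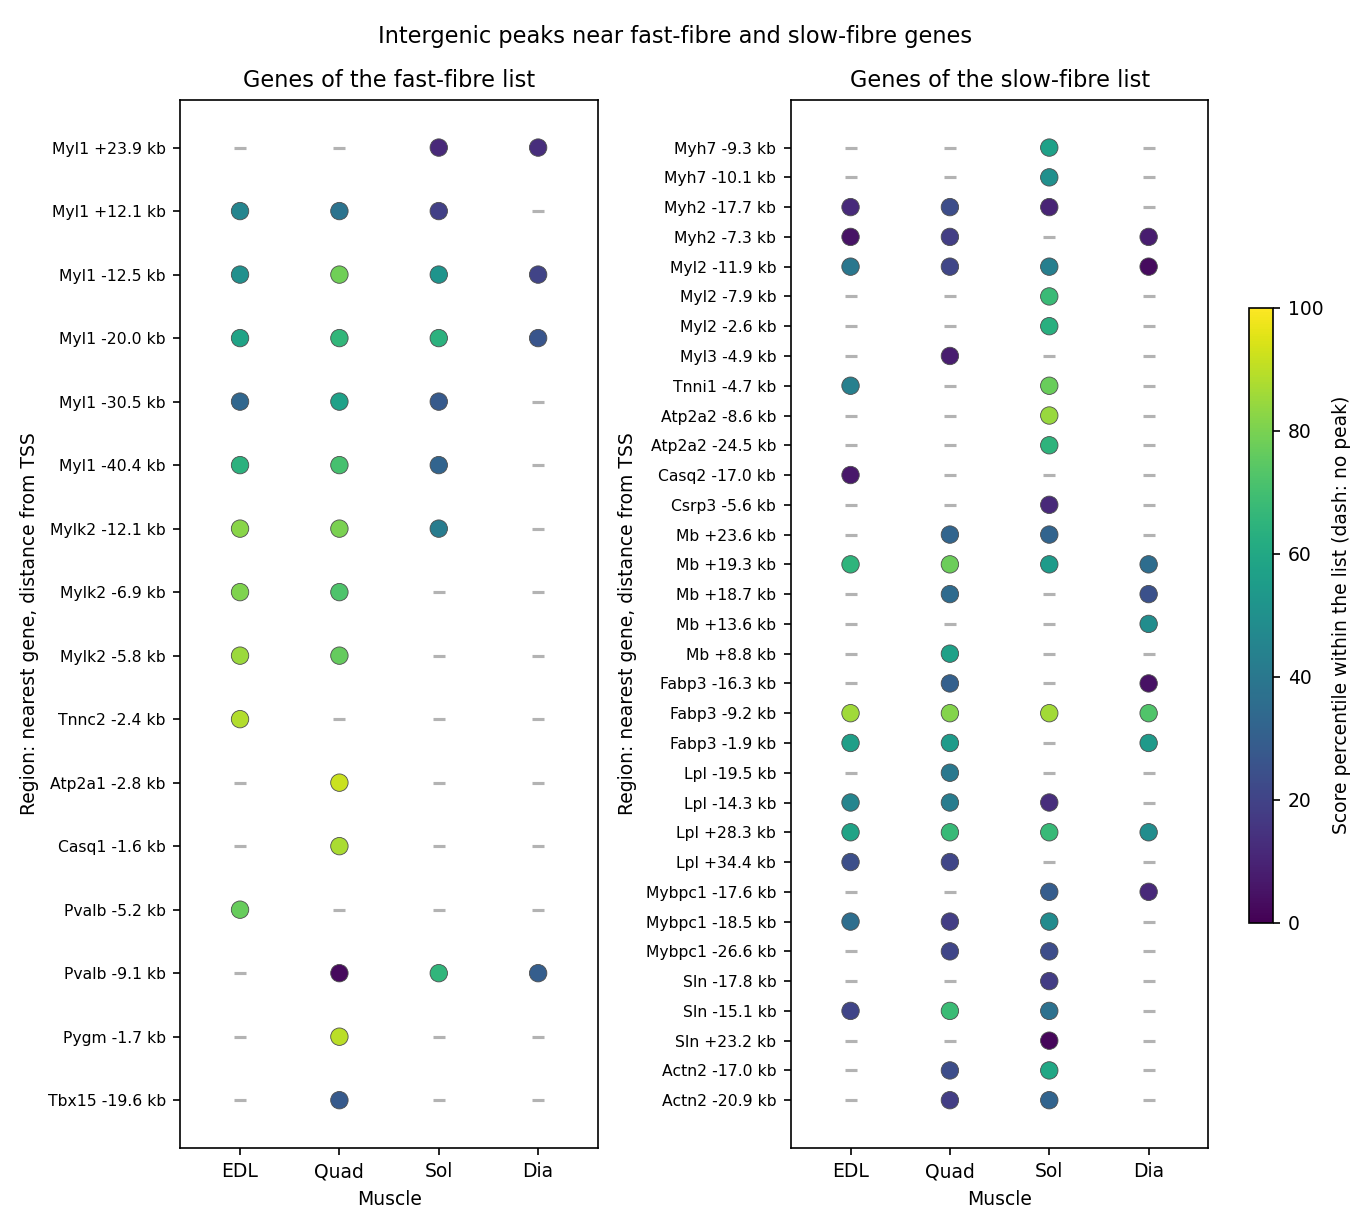
Score percentile within the list (colour; a dash where no peak was listed) of each merged proximal intergenic region of 8 fast-fibre genes and 14 slow-fibre genes (rows) in the 4 muscles (columns). The Mylk2 regions at -5772 bp and -6928 bp appear in EDL and Quad alone, and the Myh7 and Atp2a2 regions in Sol alone.

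Regulators of muscle genes had 46 regions at 24 of 36 genes, 5 of them in all 4 lists, which held 18.9% of all regions. The highest was at -1014 bp of Foxo3, a factor of muscle atrophy (95.6, 98.9, 96.2 and 96.2), just outside the promoter limit. Mef2d had, beside its EDL region, one at -8885 bp in all 4 lists (90.6, 90.8, 80.8 and 49.7). Klf15, a regulator of amino acid and lipid use, had a region at -11786 bp at 65.8, 79.9, 73.7 and 74.6. Ppargc1a, which encodes the coactivator PGC1α of oxidative metabolism, had a region listed in Quad at -28187 bp (25.8), in Sol (54.5) and in Dia (41.7), and not in EDL. Regions on the EDL and Quad side numbered 18 (39.1%) and those on the Sol and Dia side 11 (23.9%), against 40.5% and 17.5% of all regions. With 20000 peaks per list these sides held 5 and 10 of 25 regions, while over all regions the sides turned to 22.4% and 31.0%.

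Genes of fuel use had 30 regions at 13 of 26 genes. Of these, 29 were upstream, and 10 were in all 4 lists, against 18.9% of all regions. Upstream regions numbered 16 of 21 in the fast-fibre list, 25 of 33 in the slow-fibre list and 35 of 46 among the regulators. Counted by peak and not by region, 70.7% to 72.4% of all proximal intergenic peaks were upstream. Gpi1, a glycolytic isomerase, had a region at -3752 bp at 74.9, 89.8, 78.8 and 75.5. Pdk4, a kinase that restrains glucose oxidation, had one at -13645 bp at 80.3, 82.1, 77.5 and 48.7. A second Ldha region, at -6833 bp, had 86.4, 86.5, 76.6 and 56.0. Regions of the glycolytic genes Hk2 (-32740 bp, 56.1 and 69.1) and Aldoa (-7236 bp, 70.2 and 64.0) were listed in EDL and Quad alone. The sides held 9 and 5 regions (30% and 16.7%), against 40.5% and 17.5% of all regions. With 20000 peaks per list they held 6 and 9 of 25 (24% and 36%), against 22.4% and 31.0% of all regions.

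Across all genes, 6006 were nearest to at least 1 region, 3362 of them to exactly 1, 286 to 5 or more and 13 to 10 or more. Genes with a peak of this class in all 4 lists numbered 1991. Irf2bp2, a transcriptional corepressor gene of muscle and other tissues, had 13 regions spread over 88.5 kb, with 8, 12, 6 and 4 peaks in EDL, Quad, Sol and Dia. The noncoding gene A630001O12Rik on the same chromosome had 13 as well (8, 12, 7 and 6). Irf2bpl had 11 regions (6, 9, 3 and 5), Pdlim5, a Z-disc protein gene, 11 regions, all upstream (6, 4, 5 and 1), and Fos 10 (8, 6, 7 and 5). Trib1, a pseudokinase gene, had 10 (5, 5, 6 and 4), and the noncoding genes 9430078K24Rik, 2310069B03Rik and 1700029N11Rik had 11, 10 and 10.

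Differences in the number of peaks per gene also changed at equal list length. More peaks in Quad than in Sol were found at 2693 genes and fewer at 952, but with 20000 peaks per list the numbers were 761 and 921. The differences towards Quad at Irf2bp2 and Irf2bpl, 6 peaks each, became 2 and 1. Those at A630001O12Rik, 8430430B14Rik and 1700029N11Rik, 5 peaks each, became 2, 2 and -1. Towards Sol, Myh10, the gene for nonmuscle myosin IIB, had 0, 1, 6 and 2 peaks in EDL, Quad, Sol and Dia, and 0, 0, 4 and 2 with 20000 peaks per list. Adgrf1, an adhesion receptor gene, had 2, 2, 6 and 1, and Aldh1l1, an enzyme of folate metabolism, had 2, 2, 5 and 2, and both differences stayed at that length. The difference at Cyp7a1, with 4 Sol peaks and none in Quad, was 0 at equal length, and that at Rhoh, with 3 Sol peaks and none in Quad, was 1.

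Motifs were counted in 200 bp around the peak centre, on both strands and at fixed letters. The searched motifs were those of CTCF, ETS (CCGGAAG), MEF2 (CTA, 4 letters A or T, then TAG or TAA), the E-box (CAGCTG), TEAD (CATTCC), AP-1 (TGACTCA), NFAT (TGGAAA), ERR (TCAAGGTCA), NF1 and the glucocorticoid or androgen receptor. Intragenic peaks were not compared for motifs. The CTCF motif was more frequent in proximal intergenic peaks than in distal or promoter peaks. It was present in 5.12%, 4.57%, 4.50% and 5.50% of proximal intergenic peaks in EDL, Quad, Sol and Dia, against 1.70%, 1.48%, 1.47% and 2.35% of distal peaks. The differences were 3.42 percentage points (2.68 to 4.13), 3.08 (2.50 to 3.65), 3.04 (2.33 to 3.73) and 3.15 (2.13 to 4.12). Promoter peaks held it in 0.85% to 0.99%, and windows 2 kb to either side of proximal intergenic peaks in 0.226% to 0.304%.

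The ETS motif, frequent at promoters (16.4% to 17.5%), was present in 2.68%, 2.55%, 3.15% and 3.20% of proximal intergenic peaks against 1.51%, 1.56%, 1.77% and 1.80% of distal peaks, and no interval of the differences included 0. The NFAT motif was rarer than in distal peaks, at 20.5%, 19.9%, 21.6% and 19.6% against 25.1%, 22.9%, 24.0% and 23.8%. Base composition moved with both and with the CTCF difference, since GC content was 52.5% to 53.5% in proximal and 49.8% to 50.8% in distal peaks. Its part was not tested. The E-box was found in 23.9%, 22.2%, 23.7% and 20.7%, over 9.46% to 9.59% in the flanks and 10.6% to 11.5% at promoters, and its difference from distal peaks had intervals that included 0 in all 4 lists. MEF2 matches were present in 4.96%, 4.07%, 5.47% and 3.62%, against 1.46% to 1.75% in the flanks, and fell below distal peaks in Dia alone with an interval that excluded 0 (-1.48 points, -2.67 to -0.39). AP-1 matches were present in 9.95%, 9.54%, 10.1% and 9.34%, against 3.62% to 3.86% in the flanks. TEAD matches were present in 13.7%, 12.96%, 13.1% and 12.3%, against 10.1% to 10.7% in the flanks, and were rarer than in distal peaks in Quad (-1.37 points, -2.61 to -0.16), Sol (-1.89, -3.43 to -0.39) and Dia (-3.05, -4.98 to -1.19).

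Regions shared by all 4 lists differed from regions of a single list in 6 of the 10 motifs. ETS matches were more frequent by 2.14 percentage points (1.28 to 3.13), the E-box by 2.21 (0.14 to 4.34), MEF2 by 1.47 (0.48 to 2.58), CTCF by 1.31 (0.33 to 2.41) and the receptor motif by 0.84 (0.26 to 1.55), and ERR matches were rarer (-0.47, -0.72 to -0.17). In windows of 100 bp, the interval excluded 0 for ETS alone (1.42 points, 0.774 to 2.19), so the other 5 differences rested on the wider window. GC content was 54.96% in regions of all 4 lists and 50.5% in regions of 1 list. Its part in these differences, and that of score, was not tested. Between regions of EDL and Quad alone (1011) and regions of Sol and Dia alone (140), the interval of the difference included 0 for all 10 motifs. For NFAT it ran from -13.9 to 1.11 points, so a difference of several points could not be seen at these numbers.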

How the data were processed

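Per the study's methods, the authors ground frozen muscle, treated its nuclei with Tn5, sequenced 42-bp read pairs, and aligned them to mm10 with Bowtie2 at default settings. HOMER kept 1 tag per position, called fixed-width peaks in each library separately and annotated each to the nearest TSS, with promoters from 1 kb upstream to 100 bp downstream. A Tn5 shift of the read ends and removal of mitochondrial or repeat reads were not stated. Peak width, as end minus start, was 208, 188, 206 and 232 bp in EDL, Quad, Sol and Dia, apart from 1 Sol peak of 199 bp, so a wider peak has more chance of an overlap. The deposited lists hold for each peak a score, the authors' tag count scaled by library size, a class and a distance to the TSS. Read totals were not used here. The number of peaks in a list stands in for depth, and the absence of a peak means only that none was called.

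Distances were checked against RefSeq on GRCm38.p6, the assembly of mm10. The assigned transcript was found for 99.1% to 99.3% of the peaks described, and its start gave the listed distance within 100 bp for 97.05% to 97.6% of those. Sequences and soft-masking came from the same assembly, and repeated words were counted over it. Genome coordinates are 1-based. Intergenic sequence was counted on a 1 kb grid. Shares carry Wilson intervals, differences Newcombe intervals and medians binomial order-statistic intervals, all at 95%. Differences are in percentage points. Tools were Python 3.11.15, pandas 2.3.3, numpy 2.4.6, scipy 1.17.1 and BLAST 2.17.0, and the code was tested on simulated peaks. Peaks on other contigs numbered 21 to 28 per list and were left out of sequence and genome counts.

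The regions, gene lists and settings were chosen with earlier results of these data known. Named genes followed a rule: the 5 highest-scored members of each list, the 5 regions highest in all 4 lists, the 5 highest in each list over 500 bp from other lists, the 10 genes with the most regions, the 5 largest differences between Quad and Sol in each direction, and the members of the gene lists. The rule's exclusion of repeats by the detailed annotation could not be applied, since that column is empty here. Other selections are named as made after the values were seen. A gene and a motif searched are not reported here.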

Additional observations from a re-analysis of the deposited data

How the results depend on the processing

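No paired analysis was possible because each muscle had 1 library. Each of 17 shares and medians was recomputed under the alternatives, and 63 of 95 alternative values stayed within the interval of the value reported. All 17 did so without peaks over 50% soft-masked, without peaks of over 50% repeated words (both chosen after seeing the data) and on chromosomes 1 to 19 and X alone. At 20000 peaks per list, the share of proximal intergenic peaks was 16.2%, 15.55%, 16.2% and 16.7% in EDL, Quad, Sol and Dia, the Quad median percentile 37.6, the share in no other list 14.3%, 16.5%, 17.6% and 30.2%, and the share of regions in all lists 23.6%. Below 20 kb, the first share was 10.9%, 10.8%, 10.5% and 10.05%, the upstream share 79.5%, 78.6%, 80.1% and 80.3%, and the median percentile 42.1, 43.4, 41.6 and 36.8. At 50% reciprocal overlap, peaks in no other list made up 22.3%, 40.2%, 26.7% and 24.1%, and regions in all lists 14.6%. When peaks within 500 bp counted as shared, these were 12.6%, 30.0%, 18.5% and 16.2%, and 21.3%. In windows of 100 bp, 33 of 40 intervals of motif differences from distal peaks still included, or still excluded, 0. They then reached 0 for MEF2 (-0.68 points) and TEAD (-1.21) in Dia, ETS in EDL (0.436), and TEAD in Quad (-0.80) and Sol (-1.07), and excluded 0 for the receptor motif in EDL (-0.39) and ERR in Sol (-0.29). Between regions of all lists and of 1 list, 5 of 10 did so, and intervals reached 0 for the E-box (0.077 points), MEF2 (0.58), CTCF (0.735), the receptor motif (0.205) and ERR (-0.178). A shorter window holds fewer matches. At 20000 peaks per list, shared regions over 20 percentile points apart numbered 18 with EDL and Quad above and 30 with Sol and Dia above (chosen after seeing the data). The planned removal of annotated repeats was not run, since the detailed annotation is empty in every row. Depth per library was not measured, so a region missing from a list may lie just below its limit, and the difference between 1011 and 140 regions limits any comparison of the pairs of muscles.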
